A study of Homo sapiens with 36 samples.

Results

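GATA2 occupancy was examined at LMO2, LYL1, LDB1 and CBFA2T3, 4 of 19970 protein-coding genes and a group chosen because their proteins belong to the multiprotein complexes that blood cell GATA factors work in. A peak was assigned to a gene when its summit, the position of strongest signal, lay in the gene body or within 20 kb on either side in hg38. Overlapping peaks of all libraries were merged into sites. The 4 windows held 15 of the 17277 sites of the whole series: 7 at LMO2, 3 at LYL1, 2 at LDB1 and 3 at CBFA2T3, numbered in each gene by increasing coordinate.

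GATA1 and GATA2 are zinc finger transcription factors that bind GATA motifs in erythroid enhancers and promoters. They are commonly found with a complex in which TAL1 or its relative LYL1, basic helix-loop-helix proteins, pair with an E protein and are joined through the LIM-only adaptor LMO2 to LDB1, a protein that self-associates and can bring enhancers and promoters together. CBFA2T3, also called ETO2 or MTG16, is a corepressor recruited to the same complex. GATA2 is the GATA factor of early progenitors, and GATA1 takes over many of its sites as erythroid cells mature.

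The cells were HUDEP-2, an immortalized human erythroid progenitor line, grown in medium with doxycycline, erythropoietin, stem cell factor and dexamethasone. CUT&Tag, in which an antibody directs a transposase to cut and tag nearby DNA, was done with a rabbit anti-GATA2 antibody made in-house or a commercial rabbit anti-HA antibody, after lentivirus-infected cells were sorted for GFP. Anti-GATA2 libraries came from wild-type cells with an empty vector, and from GATA2-low cells, whose genotype label is GATA2+/-, with an empty vector, HA-GATA2 or HA-GATA2(T354M), a zinc finger mutant; anti-HA libraries came from the last 3 kinds of cell. Each of these 7 groups had 4 libraries with a peak list. The 1 label conflict among them, a GATA2-low empty-vector anti-GATA2 library (replicate 1) with a wild-type genotype tag, was settled by its title. GATA2-low cells can still hold protein from the intact allele, which the anti-GATA2 antibody cannot tell apart from the tagged protein, whereas the anti-HA antibody reads the tagged protein alone. The labels give neither the vector's promoter, nor whether the GATA2-low cells are 1 clone, nor whether replicates are separate cultures, so the spread that a p-value rests on is that among libraries and may be technical only.

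The lists differed in length, which bears on every count of peaks. On average a list held 7625 peaks in wild-type cells, 2430 in GATA2-low empty-vector cells, 10395 with HA-GATA2 and 4830 with HA-GATA2(T354M) by anti-GATA2, and 4, 4248 and 595 in the same GATA2-low cells by anti-HA. Read depth is not in the peak lists. The background fragment count behind the peaks, recovered from fold enrichment and p and used here as a relative depth, ran from 0.222 to 0.302 in wild-type, 0.153 to 0.213 in GATA2-low empty-vector, 0.427 to 0.434 in HA-GATA2 and 0.42 to 0.586 in HA-GATA2(T354M) anti-GATA2 libraries. The GATA2-low empty-vector libraries were thus also the shallowest, and HA-GATA2(T354M) anti-GATA2 replicate 2, with 2779 peaks, and HA-GATA2 anti-HA replicate 4, with 1912, had the shortest lists of their groups. Erythroid genes set as a check of the cell type mostly carried peaks: EPB42, SLC4A1, KLF1 and ALAS2 in all 16 anti-GATA2 libraries, but HBA1 and HBA2 in none. Among genes of other tissues, ALB, INS, MYH6, GFAP and CD3E had no peak in any library.

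LYL1 had the steadiest occupancy of the 4 genes, at its promoter. Site LYL1-2 (hg38 chr19:13102109-13103735) held a peak in all 24 libraries of the 6 groups other than empty-vector anti-HA, a pattern shared by 201 sites, 1.16% of all sites. In each of those 24 libraries the summit lay inside the promoter window of 250 bases before to 50 after the listed LYL1 start. The promoter is shown because it is the member sequence that peaks of every occupied library fell on; the capitals mark the 2 matches to the GATA motif core GATAA, which lie on the opposite strand and so read TTATC. The sequence is RefSeq's, GRCh38.p14, chr19:13102834-13103108, minus strand, 5′ to 3′, ending 25 bases into the gene.

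LYL1 promoter: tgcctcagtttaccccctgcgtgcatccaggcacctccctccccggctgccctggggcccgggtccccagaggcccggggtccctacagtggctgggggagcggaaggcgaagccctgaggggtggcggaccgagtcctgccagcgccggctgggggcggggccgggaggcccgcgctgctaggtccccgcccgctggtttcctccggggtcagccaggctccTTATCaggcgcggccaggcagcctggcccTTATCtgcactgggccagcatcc

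Counted with the start base as 0, the matches span positions -27 to -23 and 2 to 6. The E-box CANNTG, the motif class of TAL1 and LYL1 with their E-protein partners, had no match on either strand of the 300-base window. GATAA on either strand occurred in 23.2% of 27195 promoters of the same length and at least 2 matches in 4.91%, whereas CANNTG occurred in 68.9%. Of the 6 promoters with a peak in all 24 libraries, 4 held GATAA. The listed promoters of LDB1 and CBFA2T3 held no GATAA and had no peak in any library; LMO2 was not among the promoters searched. A match is a description of the letters and not evidence of a bound site.

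The summit did not fall at the same place in the LYL1 promoter in every library. In GATA2-low empty-vector anti-GATA2 libraries it was at -67 in 4 of 4. With HA-GATA2 and the same antibody it was at 11, -67, 4 and 6, so that 3 of 4 summits lay past the start, within or next to the GATAA match there; in wild-type cells 1 of 4 (at 6) and with HA-GATA2(T354M) 1 of 4 (at 9) did so. By anti-HA the summits were at -130, -137, -67 and -130 with HA-GATA2 and at -130 in 4 of 4 HA-GATA2(T354M) libraries. The caller gives a single summit per peak, so a second maximum in the same peak would not be seen. The positions overlapped at -67 between the antibodies, were picked after they were seen and were not tested.

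**Figure D1:**
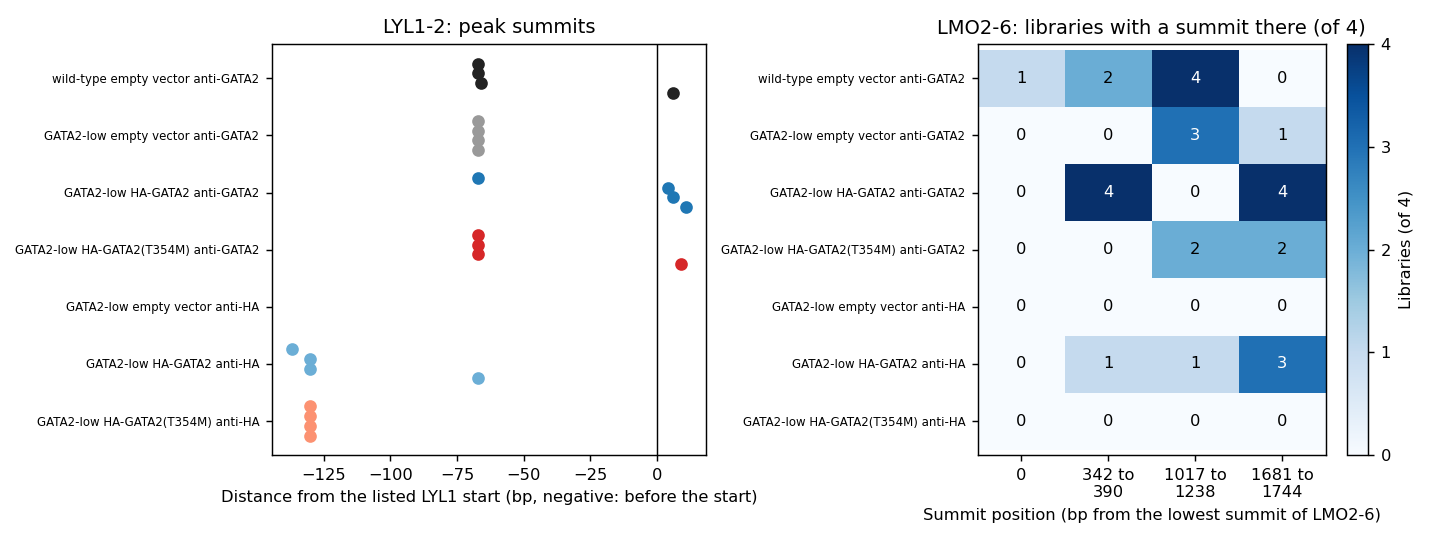
Left, distance of the LYL1-2 summit from the listed LYL1 start (bp, 1 point per library, 6 groups with a peak); right, number of libraries of 4 with a summit in each of 4 stretches of LMO2-6, in bp from its lowest summit. The anti-HA summits at LYL1 lie at -137 to -67, while at LMO2-6 the 4 wild-type libraries have a summit at 1017 to 1238 and the 4 HA-GATA2 anti-GATA2 libraries at 1681 to 1744.

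LYL1-2 was among the strongest peaks of each anti-GATA2 list by −log10 q. Its percentile in the list, by −log10 q with the strongest peak at 100, was 98.4, 98.9, 98.6 and 97.9 in wild-type libraries, from 248, 289, 275 and 214 fragments at the summit. GATA2-low empty-vector libraries gave 96.6, 96.2, 94.8 and 97.5, from 116, 104, 102 and 126 fragments. The 2 groups overlapped neither in percentile nor in fragments, but the depth and the length of the lists differed in the same direction. Fragments over each library's background count, a measure added after seeing the data and not tested, also did not overlap. They were 859 to 1120 in wild-type and 543 to 824 in empty-vector libraries. By rank, in lists of different length, LYL1-2 stood at 108, 72, 127 and 175 in wild-type libraries. In empty-vector libraries it stood at 63, 73, 123 and 94, so the groups overlapped in rank. HA-GATA2 libraries had percentiles of 96.4, 93.8, 95.5 and 93.4, and HA-GATA2(T354M) libraries 96.1, 88.2, 95.2 and 95.4, overlapping both each other and the empty-vector group.

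Because longer lists add weak peaks, strength was compared only among sites with a peak in all 8 libraries of a comparison, as ranks turned into normal scores (units of the standard normal) and tested with limma. LYL1-2 ranked lower among these shared sites with HA-GATA2 than with the empty vector in GATA2-low cells, at percentiles of 65.7 ± 12 against 93.2 ± 2.02 (SD, n = 4 each; limma difference -1.08, SE 0.202, Benjamini-Hochberg adjusted p = 0.00256). In this comparison 19.2% of 1294 shared sites ranked lower and 17.4% ranked higher. With HA-GATA2(T354M) it also ranked lower than with the empty vector, at 79.0 ± 4.62 against 92.7 ± 2.16 (limma difference -0.65, SE 0.18, adjusted p = 0.0268; 8.62% of 1206 shared sites ranked lower). The fragments at the summit were 248 to 290 with HA-GATA2, 202 to 241 with HA-GATA2(T354M) and 102 to 126 with the empty vector, not scaled to depth. Divided by each library's background fragment count, a measure added after seeing the data and not tested, they were 581 to 672, 375 to 529 and 543 to 824, so that the HA-GATA2(T354M) libraries lay below the empty-vector ones and the HA-GATA2 libraries overlapped with them.

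HA-GATA2 and HA-GATA2(T354M) gave LYL1-2 percentiles among shared sites of 77.9 ± 8.66 and 89.4 ± 2.5, a difference that did not pass (limma -0.45, SE 0.178, adjusted p = 0.077; 16.2% of 2501 shared sites ranked lower with HA-GATA2). Leaving out HA-GATA2 replicate 1 brought it past the threshold in limma (adjusted p = 0.0153), as did a block for the replicate number (adjusted p = 0.0435). Over its alternatives the adjusted p ran from 0.0153 to 0.58. Wild-type and GATA2-low empty-vector cells gave 90.8 ± 3.32 and 93.3 ± 2.01, which also did not pass (limma -0.16, SE 0.177, adjusted p = 0.632; 6.86% of 1298 shared sites passed in either direction). Ranked by fold enrichment, LYL1-2 stood lower among the shared sites of wild-type and empty-vector cells, at 37.2 ± 5.48 and 46.9 ± 6.01, and with HA-GATA2 and HA-GATA2(T354M) at 21.4 ± 12.2 and 23.5 ± 7.02 in their comparisons with the empty vector. The call for HA-GATA2(T354M) against empty vector was lost without HA-GATA2(T354M) replicate 2, 3 or 4 or empty-vector replicate 1 or 2 (adjusted p = 0.0834, 0.0696, 0.0703, 0.0532 and 0.0504 in turn). An exact permutation test per site, whose smallest unadjusted p with 4 against 4 is 0.0286, called no shared site in any comparison after adjustment; for LYL1-2 it gave adjusted p = 0.0822 for HA-GATA2 and 0.115 for HA-GATA2(T354M) against empty vector.

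LYL1-2 was also the site of these genes where the tagged mutant was itself detected in every library. By anti-HA its percentile was 93.2, 94.1, 91.2 and 50.9 with HA-GATA2, from 112, 128, 122 and 60 fragments. With HA-GATA2(T354M) it was 75.8, 78.2, 63.6 and 26.8, from 64, 59, 53 and 43 fragments. The groups overlapped in both measures through HA-GATA2 replicate 4. By fold enrichment it was among the weakest of the sites shared by these libraries, at percentiles of 2.37 ± 1.83 with HA-GATA2 and 6.09 ± 4.12 with HA-GATA2(T354M). Among the 232 sites shared by these 8 libraries the difference did not pass (limma -0.53, SE 0.402, adjusted p = 0.369; 12.5% of the shared sites passed in either direction). The 4 empty-vector anti-HA lists held no peak at any of the 15 sites. Site LYL1-1 (chr19:13097850-13098324), whose summits lie inside the neighbouring gene NFIX, had a peak in 2 wild-type anti-GATA2, 1 HA-GATA2 anti-HA and 1 HA-GATA2(T354M) anti-HA library. Site LYL1-3 (chr19:13116850-13117025), inside NACC1, had a peak in 1 wild-type library.

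**Figure D2:**
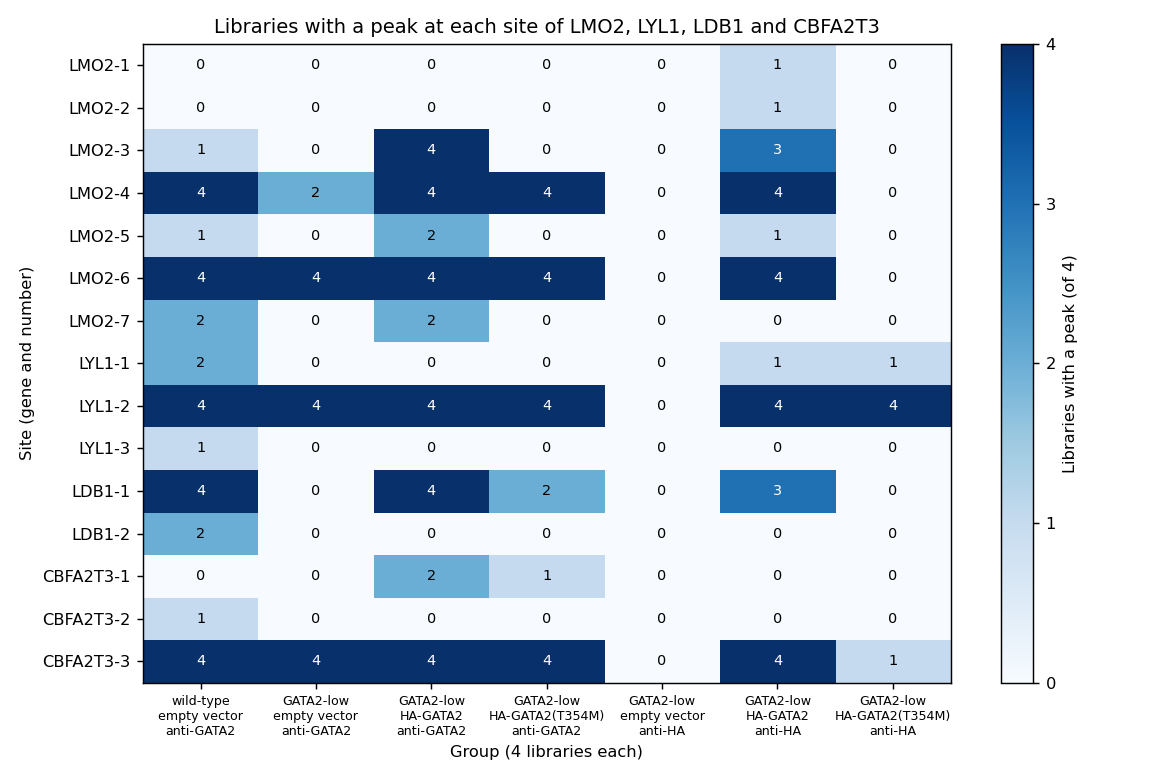
Number of libraries of 4 with a peak at each of the 15 sites (rows) in the 7 groups (columns). LYL1-2 is filled in 6 groups, LMO2-6 and CBFA2T3-3 in the 4 anti-GATA2 groups and HA-GATA2 anti-HA, and the other 12 sites are less even.

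LMO2, the adaptor of the complex, had most sites, and at LMO2-4 the signal ranked higher with HA-GATA2 than with its mutant. LMO2 lies at chr11:33858576-33892076, and sites LMO2-1 to LMO2-5 have their median summits inside it. LMO2-3 (chr11:33881703-33882389) held a peak in 4 of 4 HA-GATA2 anti-GATA2 libraries and in 0 of 8 GATA2-low libraries with empty vector or HA-GATA2(T354M), as did 1390 sites or 8.05% of all. Its percentiles with HA-GATA2 were 50.7, 67.6, 74.1 and 45.5, from 37, 53, 62 and 38 fragments. Wild-type cells had it in 1 library, at percentile 24.8 from 14 fragments. By anti-HA it was present in 3 of 4 HA-GATA2 libraries, at 18.8, 10.1 and 47.2, and in 0 of 4 HA-GATA2(T354M) libraries. In fragments the HA-GATA2 anti-GATA2 libraries lay above every other library, and in percentile they overlapped with 1 HA-GATA2 anti-HA library.

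LMO2-4 (chr11:33884885-33885871), also inside the gene, had a peak in 4 wild-type, 2 GATA2-low empty-vector, 4 HA-GATA2 and 4 HA-GATA2(T354M) anti-GATA2 libraries. Wild-type percentiles were 69.3, 60.4, 78.2 and 60.4, from 33, 28, 42 and 38 fragments. The 2 empty-vector libraries with a peak gave 45.5 and 57.7, from 18 and 21 fragments. These percentiles come from lists of different length: by rank the empty-vector peaks stood at 1043 and 988 and the wild-type ones at 1989 to 3236, and with lists of equal length the difference in libraries with a peak was -50 percentage points for wild-type minus empty vector. Which group had the stronger LMO2-4 was therefore not settled by these lists.

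With HA-GATA2 the percentiles of LMO2-4 were 93.5, 94.1, 88.8 and 95.6, from 115, 140, 146 and 160 fragments, the highest of any group. With HA-GATA2(T354M) they were 58.5, 16.7, 65.9 and 62.8, from 56, 51, 67 and 68 fragments, with replicate 2 the lowest. The groups did not overlap. Among 2501 shared sites LMO2-4 ranked at 71.7 ± 14.7 with HA-GATA2 and 23.9 ± 8.42 with HA-GATA2(T354M) (SD, n = 4 each; limma difference 1.34, SE 0.222, adjusted p = 0.00169; 14.6% of shared sites ranked higher with HA-GATA2). The adjusted p ran from 0.00125 to 0.0907 over the alternatives, highest in the exact permutation test. By anti-HA the site had percentiles of 69.5, 67.1, 80.8 and 33.2 with HA-GATA2 and no peak in the 4 HA-GATA2(T354M) libraries. Its HA-GATA2 anti-HA peaks stood at ranks 1162 to 1627, whereas the HA-GATA2(T354M) anti-HA lists held 426 to 744 peaks.

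LMO2-6 (chr11:33892765-33895082) lies outside the gene, with its median summit 1893 bp beyond the end coordinate, in the uncharacterized gene LOC105376621. The strand of LMO2 was not used here, so the end coordinate does not say which end of the gene this is. It held a peak in all 16 anti-GATA2 libraries, as did 1200 sites or 6.95% of all. Percentiles were 71.8, 80.9, 75.6 and 77.0 in wild-type cells, from 35, 38, 39 and 41 fragments, and 20.4, 8.75, 49.9 and 69.2 in GATA2-low empty-vector cells, from 11, 11, 16 and 21 fragments. The groups did not overlap in either measure as deposited, but the depth differed too. Fragments over the background count overlapped, at 121 to 185 in wild-type and 51.5 to 137 in empty-vector cells, and with lists of equal length the share of libraries with a peak differed by -75 percentage points for wild-type minus empty vector. Among 1298 shared sites, however, wild-type and empty-vector cells gave 14.3 ± 8.02 and 16.3 ± 11.9, a difference of 0.00 (limma SE 0.291, adjusted p = 0.999).

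With HA-GATA2 the percentiles of LMO2-6 were 88.4, 92.5, 94.1 and 94.8, from 77, 108, 122 and 129 fragments, above every library of the other groups. Among shared sites it ranked at 56.7 ± 5.03 with HA-GATA2 and 15.9 ± 11.8 with the empty vector (limma difference 1.30, SE 0.268, adjusted p = 0.00415; 0.00152 to 0.0822 over its alternatives, highest in the exact permutation test; 17.4% of shared sites ranked higher). With HA-GATA2(T354M) the percentiles were 50.5, 61.9, 76.4 and 83.9, from 35, 46, 46 and 58 fragments, and the comparison with empty vector did not pass (limma difference 0.53, SE 0.328, adjusted p = 0.272; 9.62% of shared sites ranked higher). HA-GATA2 exceeded HA-GATA2(T354M) directly, at 71.1 ± 4.25 against 46.9 ± 17.7 among their shared sites (limma difference 0.65, SE 0.217, adjusted p = 0.042), but this call was lost without any single HA-GATA2 library or without HA-GATA2(T354M) replicate 1 or 3 (adjusted p up to 0.109) and with ranks of fold enrichment (0.0501). By anti-HA LMO2-6 had percentiles of 79.1, 63.4, 79.5 and 51.5 with HA-GATA2 and no peak with HA-GATA2(T354M). Its HA-GATA2 anti-HA peaks stood at ranks 852 to 1800, whereas the HA-GATA2(T354M) anti-HA lists held 426 to 744 peaks.

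The position of the signal within LMO2-6 also differed between groups. With each peak trimmed to 100 bp on either side of its summit, the site split into 4 stretches. Summits at 33893814 to 33894035 occurred in 4 wild-type, 3 empty-vector, 0 HA-GATA2 and 2 HA-GATA2(T354M) anti-GATA2 libraries. Summits at 33894478 to 33894541 occurred in 0, 1, 4 and 2 libraries of the same groups and in 3 HA-GATA2 anti-HA libraries. Wild-type and HA-GATA2 anti-GATA2 libraries thus did not overlap in these 2 stretches, but they shared another: summits at 33893139 to 33893187 occurred in 2 wild-type and 4 HA-GATA2 libraries. This pattern was picked after the positions were seen and was not tested. Peaks here were up to 1975 bp wide, so signal away from the summit is not visible in the lists.

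The other LMO2 sites were sparse. LMO2-5 (chr11:33891585-33892343), at the end coordinate of the gene, had a peak in 1 wild-type, 2 HA-GATA2 anti-GATA2 and 1 HA-GATA2 anti-HA library. LMO2-7 (chr11:33898967-33899486) had a peak in 2 wild-type and 2 HA-GATA2 anti-GATA2 libraries. LMO2-1 and LMO2-2 had a peak in 1 HA-GATA2 anti-HA library each. No site of LMO2 had a peak in any HA-GATA2(T354M) anti-HA library, against 3 or 4 sites in each HA-GATA2 anti-HA library. Those HA-GATA2(T354M) lists held only 426 to 744 peaks, however. Every LMO2 peak of the HA-GATA2 anti-HA lists stood at rank 852 or deeper, past the end of the shorter lists. With lists of equal length no site was at 4 against 0 in this comparison. The cause was not tested beyond that.

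**Figure D3:**
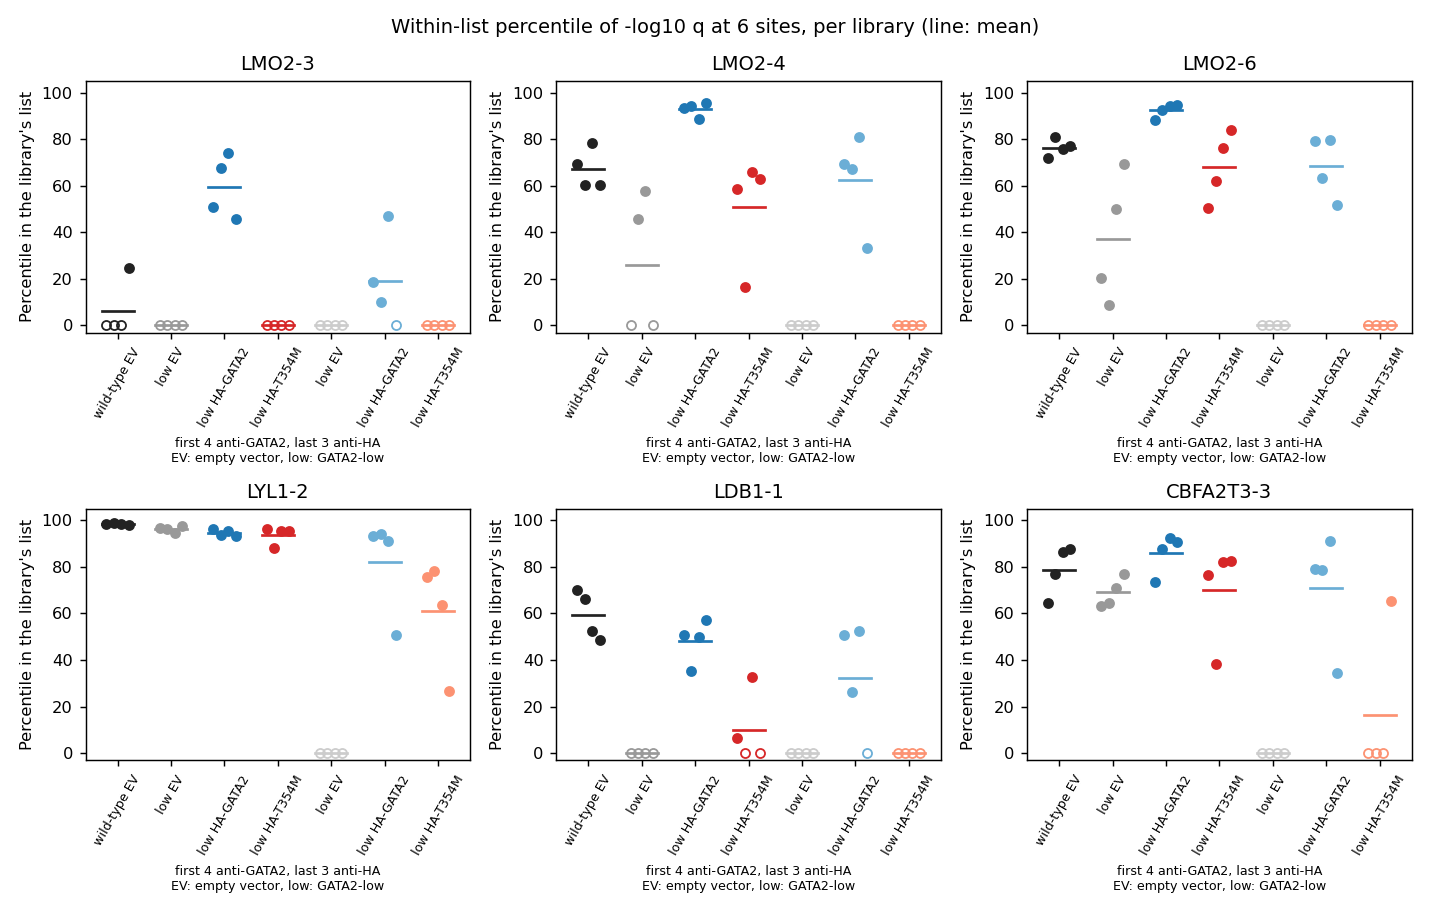
Percentile of −log10 q in the library's own list at 6 sites, 1 point per library and a line at the mean, with open points at 0 for libraries without a peak. HA-GATA2 anti-GATA2 libraries have the highest mean of the 7 groups at LMO2-3, LMO2-4 and LMO2-6, whereas at LDB1-1 wild-type libraries reach 70.0 and GATA2-low empty-vector libraries have no peak.

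LDB1, the self-associating partner of LMO2, was the member whose occupancy was not detected in GATA2-low cells with the empty vector. LDB1-1 (chr10:102112370-102112814) lies inside the gene, 2476 bp downstream of the start listed for its promoter. All 4 wild-type lists contained it and none (0 of 4) of the GATA2-low empty-vector lists did, like 13.7% of the 11156 sites of these libraries. Wild-type percentiles were 70.0, 66.1, 52.3 and 48.7, from 51, 48, 37 and 35 fragments. HA-GATA2 cells had it in 4 of 4 libraries, at 50.8, 35.2, 50.0 and 57.2 from 65, 63, 66 and 77 fragments, and HA-GATA2(T354M) in 2 of 4, at 6.44 and 32.8 from 39 and 51 fragments. Among libraries with a peak, these 2 groups did not overlap in percentile or in fragments. Fragments over the background count, not tested, did not overlap either, at 146 to 178 with HA-GATA2 and 86.3 to 111 with HA-GATA2(T354M). By rank, in lists of different length, the 2 HA-GATA2(T354M) peaks stood at 4342 and 3750. The HA-GATA2 peaks stood at 3471 to 7130, so the groups overlapped in rank.

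By anti-HA LDB1-1 was listed for 3 of 4 HA-GATA2 libraries, at 50.7, 26.2 and 52.5, and in 0 of 4 HA-GATA2(T354M) libraries. Those peaks stood at ranks 2010 to 3645, whereas the HA-GATA2(T354M) anti-HA lists held 426 to 744 peaks. LDB1-2 (chr10:102117567-102117909) had a peak in 2 wild-type libraries and no other. The 4-against-0 pattern of LDB1-1 in wild-type against GATA2-low empty-vector cells remained when fragments were scaled to equal depth, an alternative chosen after seeing the data. It was absent when lists were shortened to equal length, where LDB1-1 had no peak in either group. Since LDB1-1 was not shared by all 8 libraries in any comparison, its relative strength was not tested.

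CBFA2T3, the corepressor, had 1 constant site far from its body. CBFA2T3-3 (chr16:88992230-88993171) lies 15380 bp beyond the end coordinate of the gene, which spans chr16:88874858-88977207, and held a peak in all 16 anti-GATA2 libraries and all 4 HA-GATA2 anti-HA libraries. Percentiles were 64.4, 76.8, 86.4 and 87.6 in wild-type cells, from 54, 69, 93 and 91 fragments. They were 63.3, 64.4, 71.1 and 77.2 in GATA2-low empty-vector cells, from 29, 39, 41 and 49 fragments. The percentiles of the 2 groups overlapped.

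Among the shared sites CBFA2T3-3 did not pass the test in any anti-GATA2 comparison. It ranked at 21.7 ± 11.9 in wild-type and 48.0 ± 4.8 in GATA2-low empty-vector cells (limma difference -0.80, SE 0.234, adjusted p = 0.0677); with peaks below a −log10 q of 15 left out it passed (adjusted p = 0.048). HA-GATA2 against empty vector gave -0.28 (SE 0.19, adjusted p = 0.279), HA-GATA2(T354M) against empty vector -0.40 (SE 0.194, adjusted p = 0.165) and HA-GATA2 against HA-GATA2(T354M) 0.02 (SE 0.204, adjusted p = 0.944), all by limma. The percentiles in whole lists were 73.6, 87.6, 92.6 and 90.7 with HA-GATA2 and 76.4, 38.4, 82.1 and 82.6 with HA-GATA2(T354M), overlapping, with HA-GATA2(T354M) replicate 2 far below the rest.

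By anti-HA CBFA2T3-3 had percentiles of 79.2, 78.7, 90.9 and 34.4 with HA-GATA2, and a peak in 1 of 4 HA-GATA2(T354M) libraries, replicate 4, at 65.2 from 20 fragments. CBFA2T3-1 (chr16:88976989-88977323), at the end coordinate and thus the upstream edge of the gene, had a peak in 2 HA-GATA2 and 1 HA-GATA2(T354M) anti-GATA2 libraries. CBFA2T3-2 (chr16:88978950-88979154) had one in 1 wild-type library. The nearest summits outside the windows were 52791 bp from LMO2, 21501 from LYL1, 36810 from LDB1 and 26843 from CBFA2T3, and the farthest ones inside were 7158 from LMO2, 14091 from LYL1 and 15460 from CBFA2T3.

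**Figure D4:**
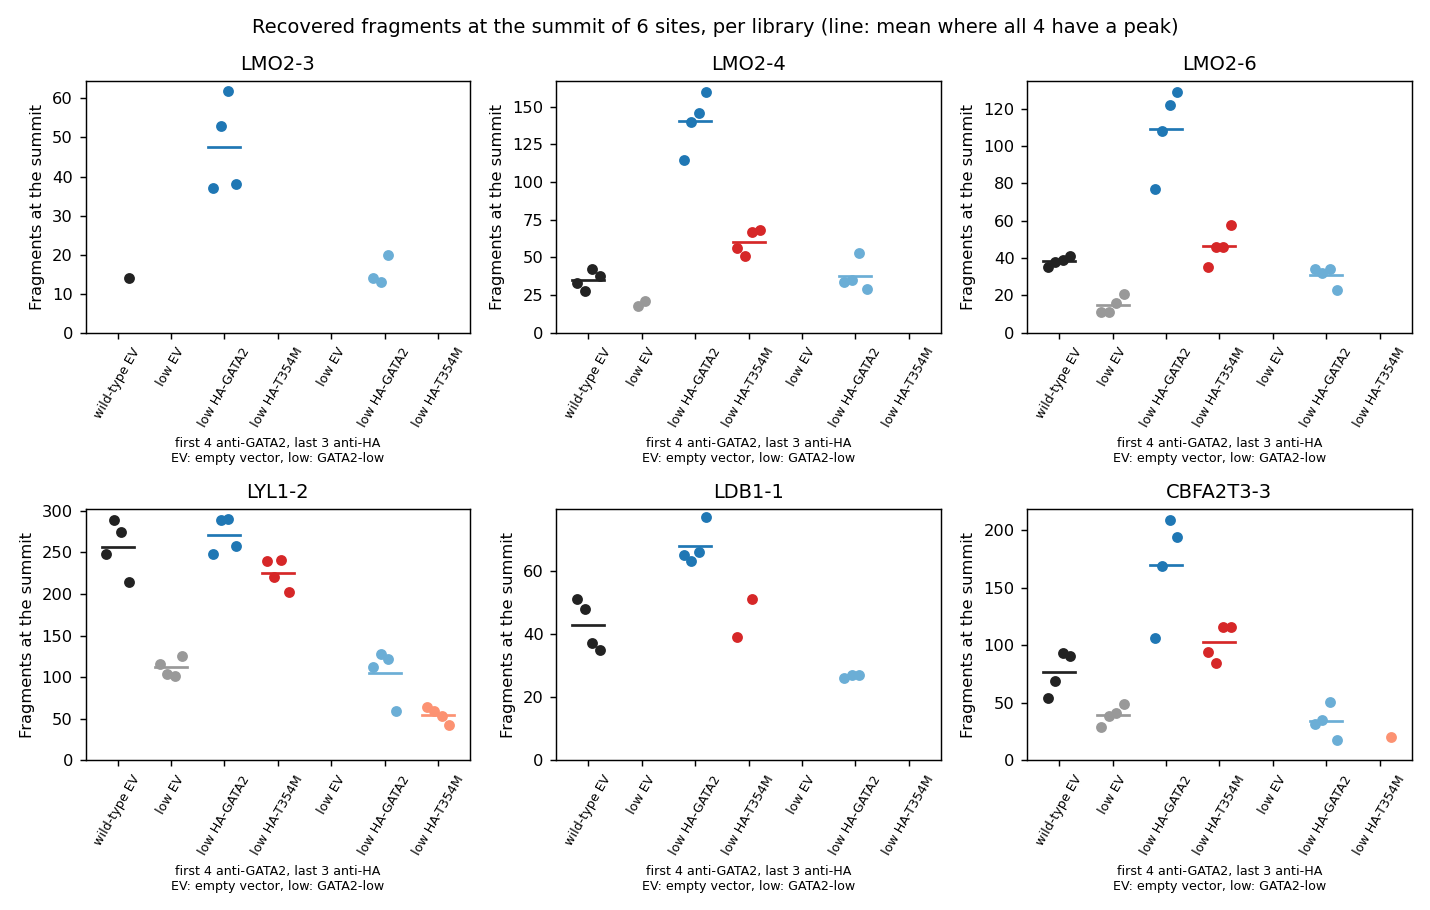
Fragments at the summit recovered from the peak lists at 6 sites, 1 point per library with a peak and a line at the mean where all 4 have one; libraries are not scaled to depth. HA-GATA2 anti-GATA2 libraries hold 77 to 129 fragments at LMO2-6 against 11 to 21 in GATA2-low empty-vector libraries, while at LYL1-2 they hold 248 to 290 against 214 to 289 in wild-type libraries.

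Over the 4 genes together, a wild-type library had a peak at 7.5 ± 1.29 of the 15 sites and a GATA2-low empty-vector library at 3.5 ± 0.577 (SD, n = 4 each), without overlap. HA-GATA2 libraries had 7.5 ± 1.29 and HA-GATA2(T354M) libraries 4.75 ± 0.5. By anti-HA the means were 6.5 ± 1.29 with HA-GATA2, 1.5 ± 0.577 with HA-GATA2(T354M) and 0 with the empty vector. These differences moved with the list lengths. With all lists of a comparison cut to the shortest, the difference was -1.5 sites for wild-type against empty vector, 0.25 for HA-GATA2 and -0.75 for HA-GATA2(T354M) against empty vector, 0 for HA-GATA2 against HA-GATA2(T354M) and -0.5 for the same pair by anti-HA. The first 3 of these comparisons share the 4 empty-vector libraries.

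Sites with a peak in all 4 libraries of a group and none of the other numbered 1 of 15 for wild-type over empty vector (LDB1-1; 13.7% of all sites of those libraries), 2 for HA-GATA2 over empty vector (LMO2-3 and LDB1-1; 23.8%), 0 for HA-GATA2(T354M) over empty vector (5.87%), 1 for HA-GATA2 over HA-GATA2(T354M) (LMO2-3; 10.2%) and 2 for the same pair by anti-HA (LMO2-4 and LMO2-6; 13.6%). No member site (0 of 15) showed the reverse pattern, which 0.0179%, 0%, 0.0394%, 0.0344% and 0% of all sites showed in the same order. The percentages are over sites with a peak in either group of a comparison, whereas some of the 15 had none there. With at most 2 sites in a comparison, these counts do not set the members apart from the background. Fisher's exact test on presence gave p = 0.0286 for each of these sites, the smallest that 4 against 4 allows, and adjusted p = 0.12 to 0.279 over all sites; in no comparison did any site of the series pass after adjustment, with 1526, 3353, 450, 1489 and 942 sites at an unadjusted p under 0.05 in the 5 comparisons in that order. Without HA-GATA2 anti-HA replicate 4, LMO2-3 and LDB1-1 joined LMO2-4 and LMO2-6, making 4 sites.

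Among 22 genes of partner proteins, a list drawn up with earlier results of these data known, 9 windows had a peak in all 16 anti-GATA2 libraries, against 6.06% of all protein-coding genes. These were TAL1, TCF3, GATA1, GATA2, RUNX1, RUNX1T1, GFI1B, ZFPM1 and KLF1. ZFPM1, which encodes the GATA cofactor FOG1, GATA2 itself, RUNX1T1, a paralog of CBFA2T3, and GFI1B, a repressor, matched LYL1 in having a peak in all 24 libraries, as did 1.19% of all genes. The paralog LMO1 had one in 23. FLI1 had none. In wild-type cells 15 of the 22 had a peak in all 4 libraries, against 21.9% of all genes, and in GATA2-low empty-vector cells 9 did. A window widens with the length of its gene, and the shares of all genes were not matched for length. Whether the partner genes stand apart was not tested.

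The partner genes with a peak in all 4 libraries of a group and none of another were few. TCF4, an E protein, had one in 4 wild-type and 4 HA-GATA2 but 0 empty-vector libraries, and 2 with HA-GATA2(T354M), the same anti-GATA2 counts as LDB1. CBFA2T2, another CBFA2T3 paralog, and RCOR1, the corepressor that links histone demethylase to GFI1B, had a peak in 4 HA-GATA2 and 0 empty-vector libraries, with 2 each in wild-type cells. KLF1, an erythroid activator, had a peak in 4 HA-GATA2 and 0 HA-GATA2(T354M) anti-HA libraries, as LMO2 did. Over the list this made 1 of 22 for wild-type over empty vector (15.8% of genes with a peak in those libraries), 3 for HA-GATA2 over empty vector (23.1%), 0 for HA-GATA2(T354M) over empty vector (4.26%), 0 for HA-GATA2 over HA-GATA2(T354M) (7.97%) and 1 by anti-HA (13.8%). Of the 22, however, 2, 4, 4, 3 and 7 had no peak in either group of these comparisons in turn, whereas the percentages leave such genes out. Over the list, the median difference in libraries with a peak was 0.5 for wild-type against empty vector and 0.5 by anti-HA. It was 0 in each other anti-GATA2 comparison. Over all genes no such background can be given for wild-type against empty vector. There 11728 of 19970 genes had no peak in either group, so their median could only be 0.

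**Figure D5:**
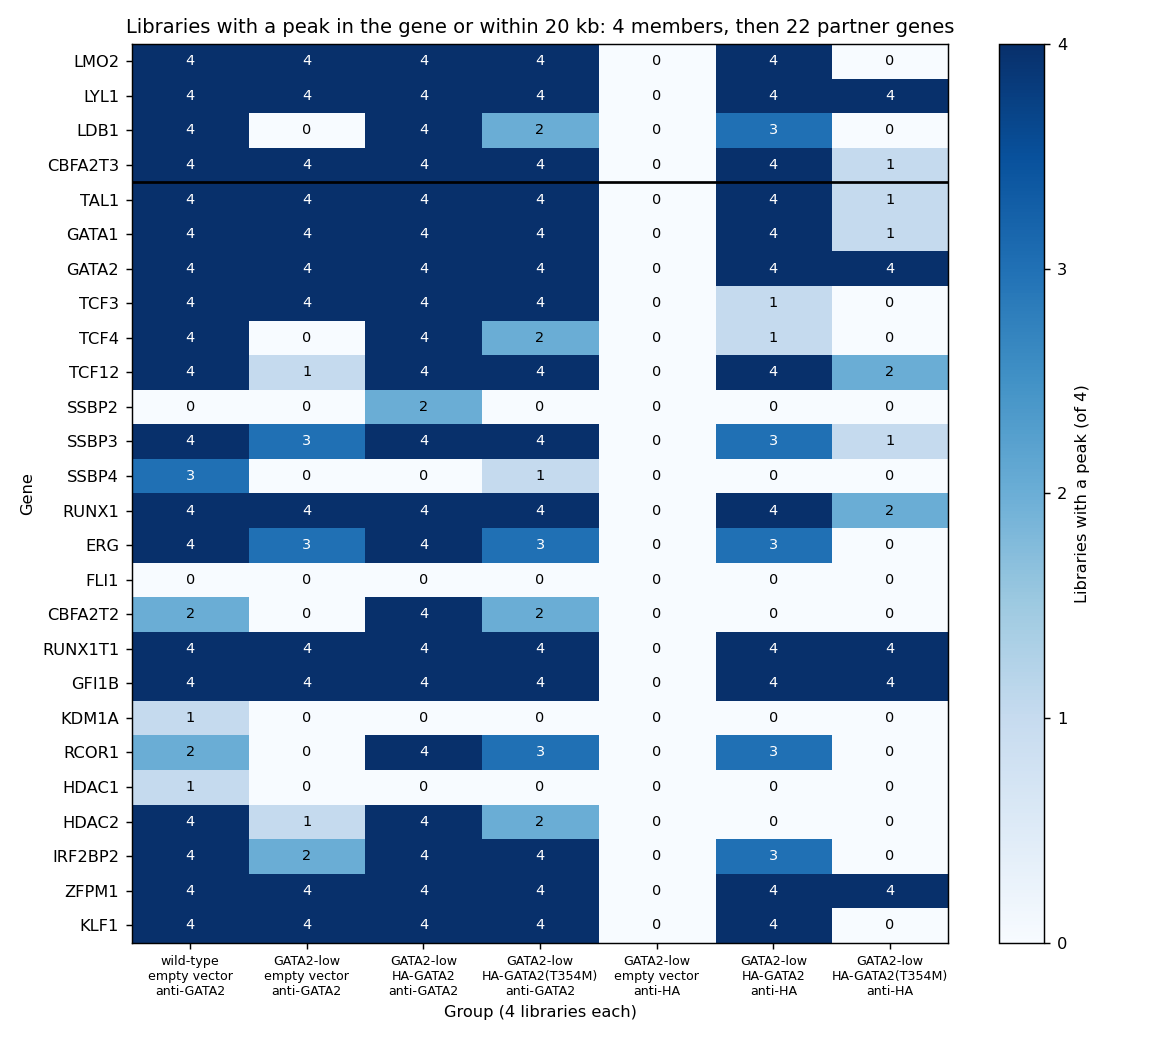
Number of libraries of 4 with a peak in the gene or within 20 kb for the 4 genes (above the line) and 22 partner genes, in 7 groups. LDB1 and TCF4 share the anti-GATA2 counts 4, 0, 4 and 2, and LMO2 and KLF1 are at 4 with HA-GATA2 and 0 with HA-GATA2(T354M) by anti-HA.

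Over the 28 libraries, the genes whose highest percentile in the window followed each member most closely were STARD13, NDUFB6 and SMIM27 for LMO2 (Spearman's rho 0.983, 0.970 and 0.970), LMO1, BAD and GPR137 for LYL1 (0.938, 0.934 and 0.934), EIF5A, GPS2 and NEURL4 for LDB1 (0.928 each) and TEC, HS3ST5 and CCKBR for CBFA2T3 (0.961, 0.952 and 0.942). These are descriptions over libraries that share groups, antibody and depth, and genes with equal values have windows that share peaks.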

How the data were processed

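The members and gene lists were chosen with earlier results of these data known. Per the submitters' processing notes, the authors worked in hg38 with MACS2 2.2.7.1, Bowtie2 2.2.5, cutadapt 3.3, FastQC and deepTools 3.5.3, whose settings the labels do not state. Each of 28 libraries has a deposited peak list, called per library; the 8 IgG libraries were not analysed here. The deposited lists give fold enrichment, the −log10 p and −log10 q of each peak (lowest −log10 q 6.00), a score that is 10 times the −log10 q without its decimals, and the summit offset. Of 120964 peaks, 120509 were kept. Peaks were merged by any overlap; a site's value in a library is its strongest peak. Gene positions are RefSeq's (GRCh38.p14). Fragments were recovered from fold and p as whole numbers within 0.03%, for 98.4 to 99.9% of peaks outside the empty-vector anti-HA lists, on the assumption that the caller added a pseudocount of 1 and scaled counts linearly, which no source used here states; they are PCR-amplified reads without molecular identifiers. The recovered scaling factor was 1 in wild-type, GATA2-low empty-vector and anti-HA lists. By anti-GATA2 it was 0.648 to 0.686 with HA-GATA2 and 0.5 to 0.706 with HA-GATA2(T354M). The −log10 q and the ranks of those 2 groups thus rest on scaled-down counts, whereas the fragments given are not scaled. The effect of this scaling on the comparisons was not tested. No exon annotation was used. The result for 1 gene of the other-tissue list is not reported here. Shared sites were tested with limma 3.58.1 in R 4.3.3 on normal scores of ranks, adjusted by Benjamini-Hochberg over all shared sites at 0.05; presence by Fisher's exact test (scipy 1.17.1), two-sided, adjusted over all sites. Sites named with values in each library had a peak in all 4 libraries of at least 1 group; partner genes were named at 4 of 4 against 0 of 4 in a comparison or in all 24 libraries. Likeness is the 3 highest Spearman correlations. Tested on simulated data with shifts of 1 normal score, limma recovered 70, 80, 68, 77 and 47.8% of changed sites in the 5 comparisons (in the order wild-type, HA-GATA2 and HA-GATA2(T354M) against empty vector, HA-GATA2 against HA-GATA2(T354M), and that pair by anti-HA) and called 0.217 to 1.61% of unchanged ones. Alternatives were the window, a stricter threshold, lists of equal length, trimmed peaks, depth scaling, the rank measure, the test, a replicate block and leaving out each library.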

Additional observations from a re-analysis of the deposited data

Results flagged for a closer look

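Dixon's critical ratio flags about 1 in 20 independent sets of normal values. The sets used here share libraries and sites, and some are counts with ties, so that rate does not apply to them. In 52 sets of 4 libraries, 5 had a library far from the other 3 (above that ratio). HA-GATA2(T354M) anti-GATA2 replicate 2 stood apart at 4 of them: LMO2-4 (percentile 16.7, others 58.5 to 65.9), LYL1-2 (88.2, others 95.2 to 96.1), CBFA2T3-3 (38.4, others 76.4 to 82.6) and the number of sites with a peak (4, the others 5 each). HA-GATA2 anti-HA replicate 4 stood apart at LYL1-2 (percentile 50.9, others 91.2 to 94.1). Both libraries had the shortest list and the highest background fragment count of their group. The first also had the lowest recovered scaling factor of its group (0.5). The part of these traits in the flagged values was not tested.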

How the results depend on the processing

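Differences in sites per library moved most with list length. With lists of equal length the number of sites per library differed by -1.5 for wild-type against empty vector, 0.25 for HA-GATA2 and -0.75 for HA-GATA2(T354M) against empty vector, 0 for HA-GATA2 against HA-GATA2(T354M) and -0.5 by anti-HA, in place of 4, 4, 1.25, 2.75 and 5, and no comparison had a site at 4 against 0 (0 in each). The cause was not tested beyond the shorter lists themselves. Then LMO2-4 differed by -50 percentage points of libraries both for wild-type and for HA-GATA2(T354M) against empty vector, LMO2-6 by -75 for wild-type against empty vector, and CBFA2T3-3 by -25 by anti-HA. With a 50 kb window the differences were 6.5, 5.75 and 4.5 sites for wild-type and HA-GATA2 against empty vector and HA-GATA2 against HA-GATA2(T354M), with 2 sites at 4 against 0 in the first. At −log10 q of at least 15 they were 2 for wild-type against empty vector and 3.5 by anti-HA, with 1 site at 4 against 0 there. Scaled to equal depth, they were 2 for wild-type and 0.5 for HA-GATA2(T354M) against empty vector, and HA-GATA2 against HA-GATA2(T354M) had 2 sites at 4 against 0, as with trimmed peaks (2; by anti-HA 1). Leaving out a library gave 2 to 4 such sites by anti-HA.

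Sites called by limma numbered 89, 473, 220, 770 and 29 in the 5 comparisons in that order, and 0 in each by the exact permutation test, which had 199, 450, 300, 788 and 54 sites at an unadjusted p under 0.05. Leaving out a library gave 14 to 119 calls in the first (fewest without wild-type replicate 2), 140 to 246 in the third (fewest without HA-GATA2(T354M) replicate 2) and 12 to 55 by anti-HA (fewest without HA-GATA2 replicate 1, most without HA-GATA2(T354M) replicate 1), where ranks of fold enrichment gave 9. The cause was not tested. Uncalled differences changed sign on leaving out a library at LMO2-6 for wild-type against empty vector (-0.24 to 0.17) and at CBFA2T3-3 for HA-GATA2 against HA-GATA2(T354M) (-0.14 to 0.16). LMO2-6 split with trimmed peaks and gave no value there.

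Whether same-numbered libraries belong together was not settled. Their correlations were not all over 0.1 in any pair of groups (-0.0742 to 0.267). With empty vector against HA-GATA2 or HA-GATA2(T354M), however, 4 of 4 anti-GATA2 libraries correlated best with their own number. For HA-GATA2 against HA-GATA2(T354M) 3 of 4 did, for wild-type against each other anti-GATA2 group 2 of 4, and by anti-HA 1 of 4. The limma results in the sections above were fitted without such a pairing unless a replicate block is named. With the replicate block, limma called 51, 463, 208, 796 and 26 sites, and LYL1-2 passed for HA-GATA2 against HA-GATA2(T354M) (adjusted p = 0.0435; 0.0153 to 0.58 over its alternatives); no other call at a site of the 4 genes changed.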
